A study of Homo sapiens with 2 samples.

Results

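Low-RNA cells without mitochondrial excess were defined as cells with fewer than 10000 unique molecular identifiers (UMIs, tags that count captured RNA molecules) in total and 50% or less of their UMIs from genes of the mitochondrial genome (names starting with MT-). Of 3534 cells, 486 met both limits. They were 174 of 1783 mock-treated cells (9.76%, exact 95% binomial interval 8.42 to 11.2) and 312 of 1751 cells treated with 5-aza-2′-deoxycytidine (DAC, a DNA demethylating drug; 17.8%, 16.1 to 19.7). HCT116, an established human colon cancer cell line, was grown in McCoy's 5A medium with serum. For the DAC-treated library it received 0.5 μM DAC on days 1 and 3, was moved to drug-free medium on day 5 and was harvested with trypsin on day 7, and the other library came from mock-treated cells. Each treatment was measured as 1 droplet library made with a 3′ single-cell kit. Low-RNA cells were compared, within each library, with full cells, meaning cells of 10000 UMIs or more with the same mitochondrial limit (1298 mock-treated and 1120 DAC-treated). The cells were chosen by their total UMIs and mitochondrial share, so both are given as a description. With 1 library per treatment, and because cells are not replicates, no test was possible, and every interval below covers counting error only.

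In a droplet library each barcode reports the RNA captured with 1 bead. Few UMIs at a barcode can come from a cell that has lost RNA, from a bare nucleus or from free RNA, and the UMI total alone cannot tell these apart. Spliced mRNAs for ribosomal proteins and metabolic enzymes lie mainly in the cytoplasm. MALAT1, a long non-coding RNA of nuclear speckles, and NEAT1, the long non-coding RNA that builds paraspeckles, stay in the nucleus, and mitochondrial transcripts lie in an organelle of the cytoplasm.

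MALAT1 and NEAT1 were the genes proposed as markers for these cells, and both lie on chromosome 11 (hg38, plus strand, GENCODE release 44), MALAT1 at chr11:65497640-65508073 and NEAT1 at chr11:65422774-65445540. The kit primes reverse transcription on runs of A, so the longest run of A inside MALAT1 is shown, in capitals, with 30 bases on either side. It was read from the hg38 sequence at chr11:65506068-65506140.
MALAT1: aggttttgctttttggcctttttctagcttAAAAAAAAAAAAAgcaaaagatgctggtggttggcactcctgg
The MALAT1 run holds 13 A and is the gene's only run of 9 or more, and 1 of 66 annotated MALAT1 transcripts ends there. The counts give no position within a gene, so whether UMIs arose at this run was not tested.

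Low-RNA cells held 352000 of the mock-treated library's UMIs (0.705%) and 592994 of the DAC-treated library's UMIs (1.00%). Their median was 837 UMIs per mock-treated cell and 1006.5 per DAC-treated cell, against 32296.5 and 47060.5 in full cells. Low-RNA cells under 1000 UMIs numbered 103 of 174 (59.2%) and 153 of 312 (49.0%). Many cells therefore sat near the lower end of the deposited barcodes, which began at 500 UMIs. The highest low-RNA cell held 9640 UMIs (mock-treated) or 9658 (DAC-treated), and the lowest full cell 10538 or 10042. Within 20% of the UMI limit lay 19 mock-treated and 16 DAC-treated cells. On the mitochondrial side, the highest share inside the limit was 48.8% and 49.4%, and the lowest share above it at the same UMI totals was 52.7% and 50.6%.

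The mitochondrial share itself separated the libraries. Its median was 15.4% in mock-treated low-RNA cells and 4.26% in DAC-treated ones, while the full cells stood at 17.1% and 17.9%. Below 5% were 38 of 174 mock-treated and 166 of 312 DAC-treated low-RNA cells, but only 2 of 1298 and 18 of 1120 full cells. In all, 20 mock-treated and 68 DAC-treated low-RNA cells lay under 1%. Low-RNA cells thus included many that were nearly free of mitochondrial transcripts, and these made up a larger part of the DAC-treated group.

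**Figure D1:**
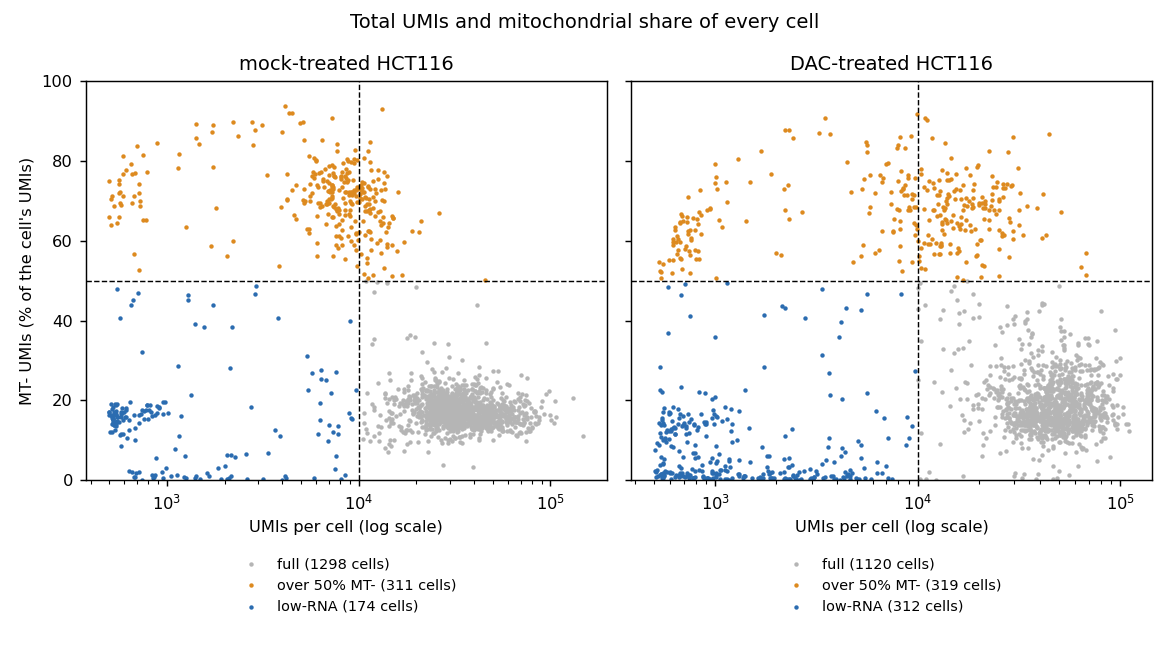
Each point is 1 cell, with its total UMIs on a log scale across and the share of UMIs from MT- genes (percent) upward, for the mock-treated (left) and DAC-treated (right) library. Dashed lines mark the limits of 10000 UMIs and 50%. The 174 and 312 low-RNA cells (blue) form a band near 15% at under 1000 UMIs and, mainly in the DAC-treated library, a second band near 0%.

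Few genes were seen per low-RNA cell, with a median of 483.5 (mock-treated) and 638.5 (DAC-treated) against 5314.0 and 6644.0 in full cells. After each cell was thinned to 500 UMIs, which left out no cell, the medians were 322.0 against 305.0 and 370.0 against 339.5. At equal depth the median low-RNA cell thus showed slightly more genes than the median full cell. Not every range of low-RNA cells did, since the median was 269 in those from 20% to 50% mitochondrial UMIs in each library and 268.5 in the 26 mock-treated cells with more MALAT1 than any full cell.

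The libraries shared 12 barcodes. Low-RNA cells were on at least 1 side of every shared pair, with 7 pairs full in mock-treated and low-RNA in DAC-treated cells, 3 the other way round and 2 low-RNA in both. In the 7 pairs the mock-treated partner held between 70236 and 148446 UMIs. Leaving out the shared barcodes, 5 in the mock-treated and 9 in the DAC-treated low-RNA group, moved no share ratio of MALAT1, NEAT1, the ribosomal protein genes or the DAC-induced genes beyond its counting interval.

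Pooled over cells, MALAT1 made up more of the RNA of low-RNA cells than of full cells in both libraries. It gave 60656 counts per 1000000 UMIs of the pooled cells (CPM) in mock-treated low-RNA cells against 26970.4 in full cells, a log2 ratio of 1.17 (95% counting interval 1.15 to 1.19) from 21351 UMIs. In DAC-treated cells the values were 54732 against 12471 CPM, a log2 ratio of 2.13 (2.12 to 2.15) from 32456 UMIs. NEAT1 followed with 1210.2 against 680.2 CPM in mock-treated cells (log2 ratio 0.83, 0.69 to 0.97) and 1526 against 616 in DAC-treated cells (1.31, 1.21 to 1.40). Of the 426 NEAT1 UMIs in mock-treated low-RNA cells, 110 lay in 1 cell, and the log2 ratio was 0.41 without it.

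The excess did not describe the typical low-RNA cell. The median MALAT1 share per cell was 2.57% in both low-RNA and full mock-treated cells, and 0.673% in low-RNA against 1.09% in full DAC-treated cells. The quartiles of low-RNA cells were 1.54% and 3.57% (mock-treated) and 0.0888% and 2.52% (DAC-treated), against 1.86% to 3.30% and 0.637% to 1.72% in full cells. Low-RNA cells therefore spread to both sides of the full cells, and high MALAT1 is not a property of the group as a whole, which is called here by its rule. The highest share in a low-RNA cell was 54.2% (mock-treated) and 41.2% (DAC-treated), while no full cell passed 12.1% and 8.56%.

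**Figure D2:**
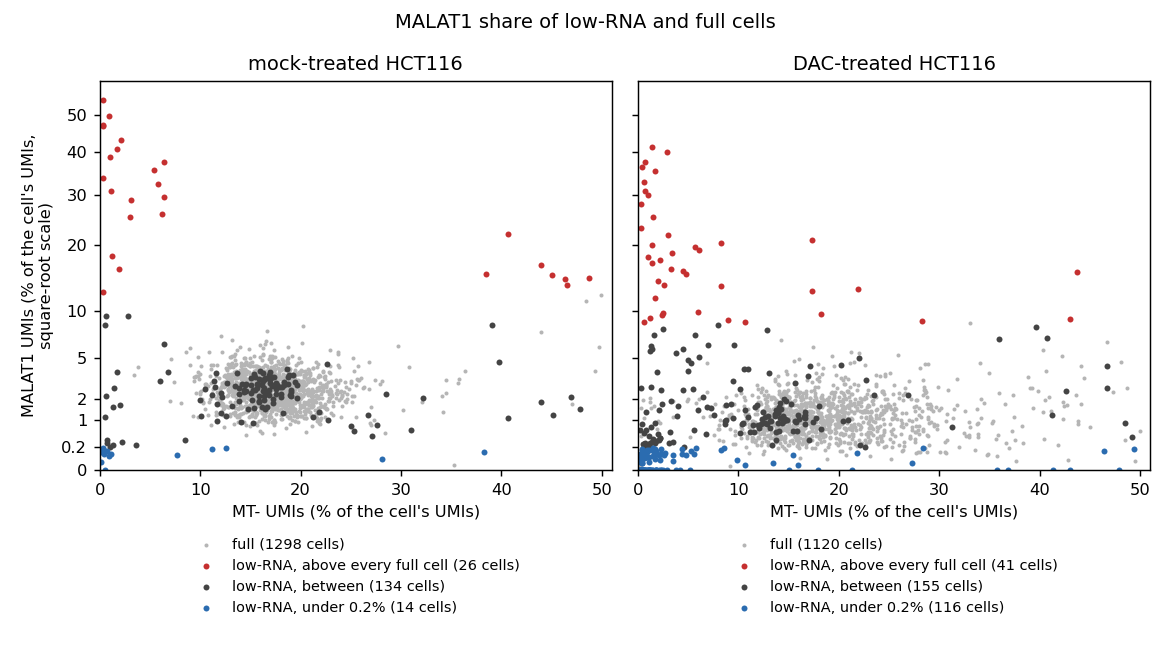
Each point is 1 cell, with its MT- share (percent) across and its MALAT1 share (percent of UMIs, square-root scale) upward. Full cells are grey. Low-RNA cells above every full cell are red (26 mock-treated, 41 DAC-treated), those under 0.2% are blue (14 and 116), and the rest are dark. The red cells lie mostly at low MT- share, with 7 mock-treated and 4 DAC-treated ones from 20% to 50%, and most blue cells of the DAC-treated library lie under 5%.

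To describe this spread, low-RNA cells were divided, after the values were seen, into 3 ranges of MALAT1 share. MALAT1-rich cells lay above every full cell of their library, MALAT1-poor cells lay under 0.2%, and the others lay between. The rich range held 26 of 174 mock-treated (14.9%, 10.00 to 21.1) and 41 of 312 DAC-treated cells (13.1%, 9.60 to 17.4). These cells carried 67.1% and 79.5% of all MALAT1 UMIs of low-RNA cells with 15.1% and 21.8% of all their UMIs. Most MALAT1 UMIs of low-RNA cells thus lay in a small part of the cells of each library. The limit of the rich range was 12.1% in mock-treated and 8.56% in DAC-treated cells, so its size is not compared between libraries.

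The MALAT1-poor range differed in size, with 14 mock-treated (8.05%, 4.47 to 13.1) and 116 DAC-treated low-RNA cells (37.2%, 31.8 to 42.8). Among full cells, 1 of 1298 and 40 of 1120 lay under 0.2%. At 500 UMIs per cell, 9 mock-treated (5.17%) and 81 DAC-treated low-RNA cells (26.0%) lay under 0.2%, against 3 (0.231%) and 59 (5.27%) of the full cells. With all UMIs of each cell, no MALAT1 UMI was found in 1 mock-treated and 50 DAC-treated low-RNA cells, and no full cell lacked one. At 500 UMIs a share under 0.2% means no MALAT1 UMI, so 3 mock-treated and 59 DAC-treated full cells lacked one at that depth. The ranges are parts of a spread and not cell types. Within 20% of the upper limit lay 3 mock-treated and 17 DAC-treated low-RNA cells, and within 20% of the lower limit 5 and 17. Nearest the upper limit, the cells inside held 12.6% and 8.64% and those outside 9.45% and 8.33%. Nearest the lower limit, 0.190% and 0.198% lay inside and 0.212% outside in both libraries.

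Both ends of the MALAT1 spread were most frequent where mitochondrial transcripts were scarce, though not confined there. Under 5% MT- UMIs, 14 of 38 mock-treated low-RNA cells were MALAT1-rich and 9 were MALAT1-poor, and 27 and 92 of 166 DAC-treated ones. From 5% to under 20%, where most full cells lie, 100 of 108 mock-treated and 89 of 112 DAC-treated low-RNA cells fell between. From 20% to 50%, 7 of 28 mock-treated and 4 of 34 DAC-treated cells were MALAT1-rich, and 2 and 11 were MALAT1-poor. The plot of MALAT1 against mitochondrial share shows this as a fork at the left edge of each panel.

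Cells at both ends of the UMI range were like full cells in the mock-treated library. Among the 103 mock-treated cells under 1000 UMIs, the median MALAT1 share was 2.57% and the median mitochondrial share 16.0%, and 0 of 91 nuclear genes with at least 100 UMIs observed or expected differed 2-fold from full cells. Among the 32 cells of 1000 to under 2500 UMIs the median MALAT1 share was 14.8% and the median mitochondrial share 5.96%, and of 76 such genes 1 was 2-fold higher and 25 were 2-fold lower. In the 13 cells from 2500 and the 26 cells from 5000 UMIs the MALAT1 medians were 3.78% and 2.06%, and in the latter, with a median mitochondrial share of 15.3%, 1 of 186 genes was 2-fold higher and 0 were lower. The highest MALAT1 and lowest mitochondrial medians of the mock-treated library thus lay in 1 range of UMI totals. In DAC-treated cells the 4 medians in the same order were 0.561%, 0.297%, 2.24% and 2.58%.

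Gene shares in pooled low-RNA cells were then compared with those in full cells over all genes with at least 100 UMIs observed or expected in low-RNA cells. In mock-treated cells 2 of 370 genes (0.541%) were 2-fold or more higher and 0 were 2-fold or more lower, and the median ratio over the 370 genes was 0.931. In DAC-treated cells 52 of 930 genes (5.59%) were 2-fold or more higher and 8 (0.86%) lower, with a median ratio of 1.00. Over the 356 genes measured in both, MALAT1 and MTRNR2L12 were 2-fold higher in both libraries (0.562%) and 0 were 2-fold lower in both. As the mean of per-cell shares, the log2 ratio of MTRNR2L12 in mock-treated cells was 0.83, which is under 2-fold. A gene could reach 100 UMIs through a high share in low-RNA cells, so genes with higher shares pass more easily. Among genes with 100 UMIs or more expected from full cells alone, a limit chosen after seeing the data, 1 of 344 (0.291%) was 2-fold higher in mock-treated cells, and 14 of 798 (1.75%) were 2-fold higher and 8 (1%) lower in DAC-treated cells. Most genes thus lay within 2-fold of full cells.

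Beside MALAT1, NEAT1 and MTRNR2L12, the genes picked as highest in both libraries included PNN (a splicing-associated protein; log2 ratio 0.74 in mock-treated and 1.04 in DAC-treated cells), LUC7L3 (a U1-associated splicing protein; 0.74 and 0.98) and RBM39 (a splicing co-activator; 0.70 and 0.96). TAF1D, a subunit of the RNA polymerase I selectivity factor whose gene also hosts small nucleolar RNAs, stood at 0.78 and 1.56. VMP1, a membrane protein of autophagy, stood at 1.00 and 1.31, and the amino acid transporter SLC38A2 at 0.71 and 0.87. These genes were picked for their high ratios, and in mock-treated cells they reached 100 UMIs through their low-RNA counts, so their intervals are no evidence of a difference.

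The genes lowest in both libraries were much closer to full cells. TUBB (a beta-tubulin) had log2 ratios of −0.53 and −0.61, PCBP2 (a poly(C)-binding protein) −0.47 and −0.76, and EIF3A (a translation initiation subunit) −0.45 and −0.35. EZR, which links actin to the membrane, stood at −0.40 and −0.41, and CFL1, which severs actin, at −0.37 in both. The other 5 were TOMM20, NDUFA4, TSPO, XRCC5 and PEBP1, between −0.31 and −0.45. None of the 10 was 2-fold lower in either library. As means of per-cell shares, the ratio of TUBB was 1.04 in mock-treated cells, and those of NDUFA4 and TOMM20 were 1.07 and 1.02 in DAC-treated cells, so these directions depended on the pooling.

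Among the 52 genes 2-fold higher in DAC-treated low-RNA cells were JUN, IER2 and KCNQ1OT1. JUN, a subunit of the AP-1 transcription factor, gave 553.1 CPM against 95.01 in full cells, a log2 ratio of 2.54 (2.38 to 2.70). IER2, an early response gene, gave 625.6 against 198.9 (1.65, 1.50 to 1.80), and KCNQ1OT1, an imprinted nuclear antisense RNA, 180.4 against 61.1 (1.56, 1.27 to 1.84). In mock-treated cells their log2 ratios were 0.99, 0.37 and 1.56. JUN and KCNQ1OT1 reached 100 UMIs in DAC-treated cells through their low-RNA counts, so they describe these cells and are not evidence of a difference.

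The 8 genes 2-fold lower in DAC-treated low-RNA cells held 4 mitochondrial genes, whose share is part of the rule. The nuclear ones included SLC2A1, the main glucose transporter (91.1 against 211.4 CPM, log2 ratio −1.22), BSG, a chaperone of lactate transporters (192.2 against 387.1, −1.01), and the interferon-stimulated gene IFI6 (219.2 against 488.7, −1.16). CALR and HSP90B1, endoplasmic reticulum chaperones, stood at −0.69 and −0.53. SLC2A1, BSG, IFI6 and CALR, like JUN and IER2 above, were named after their values were seen. In mock-treated cells the log2 ratios of SLC2A1 and BSG were −0.89 and −0.19, both with intervals that hold 0, and that of IFI6 was 0.58 (−0.26 to 1.31) from 15 UMIs.

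Genes were next grouped into 23 lists. The nuclear lncRNA list (10 of 14 listed names found) summed to 2.23 times its share in full cells in mock-treated low-RNA cells (2.20 to 2.26) and 4.24 times in DAC-treated ones (4.19 to 4.29), almost all of it MALAT1. The nuclear-retained mRNA list of 19 genes, which holds CCNL1, CLK1, DDX17, RSRP1 and other genes whose transcripts are often kept in the nucleus, summed to 1.49 (1.41 to 1.58) and 1.87 (1.80 to 1.95). With 100 UMIs or more expected from full cells alone, 1 member in mock-treated and 6 in DAC-treated cells could be counted, and all were higher, against 81 of 344 (23.5%) and 335 of 798 (42%) of all genes.

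Genes of protein synthesis and metabolism stayed near their full-cell share in the pooled cells. The 87 cytosolic ribosomal protein genes summed to 0.917 (0.911 to 0.924) in mock-treated and 0.933 (0.927 to 0.939) in DAC-treated low-RNA cells, with 69 of 77 and 56 of 78 members lower where 100 UMIs were expected from full cells, none of them 2-fold. Of all genes under the same limit, 263 of 344 (76.5%) and 463 of 798 (58%) were lower, and the medians of the list, 0.919 and 0.924, were close to those over all genes, 0.926 and 0.963. The mean of per-cell shares gave 0.830 and 1.01, so the direction in DAC-treated cells depended on the pooling. Translation factors summed to 0.925 and 1.00, mitochondrial ribosomal proteins to 0.915 and 0.965, nuclear-encoded oxidative phosphorylation genes to 0.924 and 0.990, glycolysis genes to 0.937 and 0.990, and cytosolic chaperones to 0.942 and 0.972.

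Several lists were higher in DAC-treated low-RNA cells by more than in mock-treated ones. The immediate early and short-lived mRNA list of 23 genes summed to 1.22 (1.16 to 1.28) in mock-treated and 2.32 (2.23 to 2.41) in DAC-treated cells. Only 3 members in each library had 100 UMIs expected from full cells, and all 3 were higher in both, against 81 of 344 (23.5%) and 335 of 798 (42%) of all genes. In DAC-treated cells 1 of the 3 was 2-fold higher, against 14 of 798 genes (1.75%). The hosts of small nucleolar RNAs summed to 1.01 (0.935 to 1.08) and 1.78 (1.67 to 1.91), with SNHG12 at log2 ratios of 0.41 and 2.39. SNHG12 reached 100 UMIs in DAC-treated cells through its low-RNA count and did not reach it in mock-treated ones, and of the 2 hosts with 100 UMIs expected from full cells 0 were 2-fold higher in DAC-treated cells. Replication-dependent histone genes summed to 0.938 (0.847 to 1.04) and 1.61 (1.51 to 1.71). Whether these differences exceed the spread between cultures cannot be told with 1 library each.

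The histone genes did not share 1 ratio. In DAC-treated low-RNA cells HIST1H2BN gave 86.0 CPM against 14.4 in full cells (log2 ratio 2.57, 2.14 to 2.98, from 51 UMIs) and HIST1H2AC 87.7 against 26.6 (1.72, 1.29 to 2.12, from 52 UMIs), both under the minimum of 100 UMIs. HIST1H1C, a linker histone, stood at 0.62 (0.43 to 0.81), and HIST1H4C, the most abundant member in both libraries, at −0.22 (−0.40 to −0.05) in both libraries, though its ratio turned from 0.856 to 1.04 in mock-treated low-RNA cells under 5000 UMIs. Transcripts of these genes mostly lack a poly(A) tail, so a 3′ kit counts only a part of them.

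Cell cycle lists were slightly lower in pooled cells. S-phase genes summed to 0.825 (0.741 to 0.917) in mock-treated and 0.951 (0.902 to 1.00) in DAC-treated cells, and G2/M genes to 0.808 (0.754 to 0.865) and 0.893 (0.862 to 0.925). In mock-treated cells the mean of per-cell shares gave 1.14 for S phase and 1.21 for G2/M, the other direction. Genes induced by p53 summed to 1.06 (0.977 to 1.14) and 1.08 (1.02 to 1.15), and to 0.968 in DAC-treated cells when mitochondrial UMIs were left out of the total.

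The mitochondrially encoded list, which the rule used in part, summed to 0.892 in mock-treated and 0.497 in DAC-treated low-RNA cells. MT-CO2, a subunit of cytochrome c oxidase, gave log2 ratios of −0.26 and −1.57, and MT-ND4, a subunit of complex I, −0.11 and −0.96. Removing mitochondrial UMIs from the total lowered every other DAC-treated ratio, and the MALAT1 ratio was then 3.93 in place of 4.39. Interferon-stimulated genes summed to 0.984 (0.914 to 1.06) and 0.871 (0.839 to 0.905), and the 8 members with 100 UMIs expected from full cells were all below 1 in DAC-treated cells, IFI6 by 2-fold, against 463 of 798 (58%) of all genes. The intervals of IFI27 (log2 ratio −0.02, −0.15 to 0.10) and IFITM3 (0.00, −0.20 to 0.19) hold 0, and ISG15 turned from a ratio of 0.919 to 1.02 by the mean of per-cell shares and under 5000 UMIs and to 1.03 at 20% mitochondrial UMIs or less.

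Other lists lay on different sides of full cells in the 2 libraries. Endoplasmic reticulum folding genes summed to 1.12 (1.06 to 1.18) in mock-treated cells, and to 0.932 in those under 5000 UMIs, but to 0.808 (0.775 to 0.843) in DAC-treated cells, where 9 of 11 members with 100 UMIs expected from full cells were lower, against 463 of 798 (58%) of all genes. Ferritin and metallothionein genes summed to 1.03 (1.00 to 1.06), or 0.932 as the mean of per-cell shares, in mock-treated and 0.783 (0.762 to 0.806) in DAC-treated cells, where FTH1 and FTL, the iron-storage subunits, had log2 ratios of −0.53 and −0.47. HSPA5, the main chaperone of the endoplasmic reticulum, stood at 0.50 in mock-treated cells, with 93 of 406 UMIs in 1 cell and a log2 ratio of 0.16 without it. Actin and tubulin genes summed to 0.965 (0.936 to 0.995), or 1.02 as the mean of per-cell shares, in mock-treated and 1.03 (1.01 to 1.04), or 0.917 without mitochondrial UMIs, in DAC-treated cells.

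**Figure D3:**
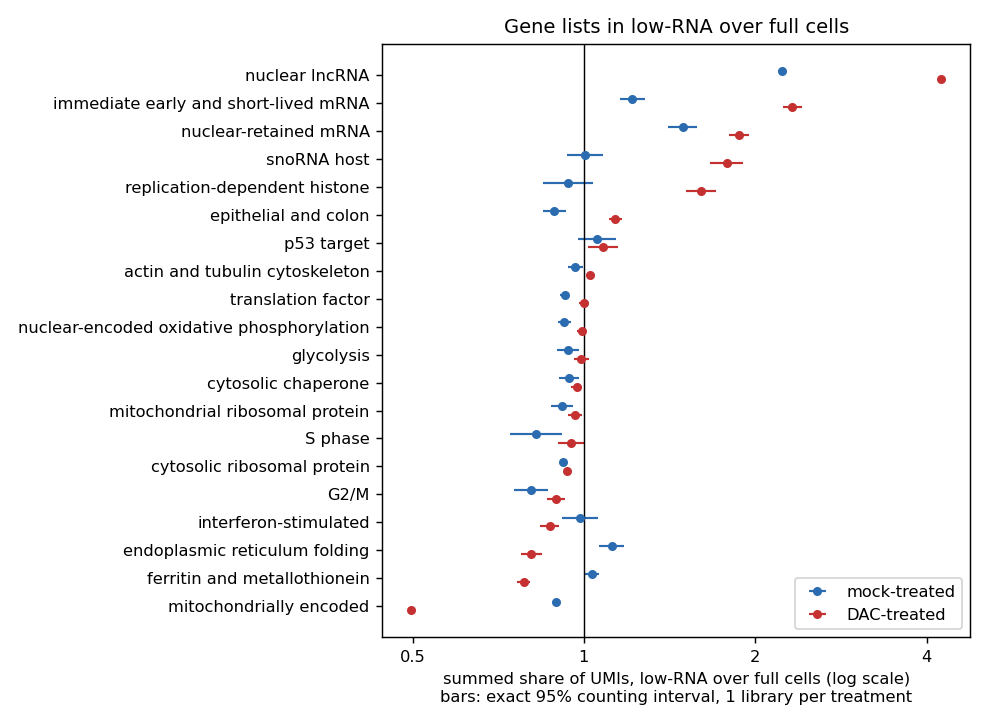
Points give the summed share of gene lists in low-RNA cells over that in full cells (log scale), with exact 95% counting intervals, in mock-treated (blue) and DAC-treated (red) cells. The DAC-induced, cancer-testis and other-cell-type lists are not drawn, and of those drawn nuclear lncRNAs lie furthest to the right at 2.23 and 4.24, and the ribosomal protein, translation factor, glycolysis and oxidative phosphorylation lists lie between 0.917 and 1.00.

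The contrast grew once cells were compared by MALAT1 range. Shares were recomputed without MALAT1 and mitochondrial UMIs, so that neither could lower the other genes through the total. In MALAT1-rich cells the ribosomal protein genes summed to 0.477 (0.463 to 0.491) times their share in full cells in the mock-treated library and 0.437 (0.428 to 0.446) in the DAC-treated library. Nuclear-retained mRNAs summed to 4.91 (4.45 to 5.42) and 3.90 (3.66 to 4.16), and oxidative phosphorylation genes to 0.431 and 0.454. The nuclear-retained list thus lay above full cells and the other 2 lists below them in both libraries. Markers of other cell types summed to 4.42 (0.909 to 13.0, from 3 UMIs) and 3.92 (2.14 to 6.60, from 14 UMIs) in the same rich cells, and their part in the result was not tested.

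MALAT1-poor cells lay on the other side for most lists. Their nuclear-retained mRNAs summed to 0.432 (0.282 to 0.633) in mock-treated and 0.533 (0.475 to 0.596) in DAC-treated cells, and their ribosomal protein genes to 1.04 (1.02 to 1.07) and 1.06 (1.05 to 1.07). Actin and tubulin genes summed to 1.37 and 1.26, glycolysis genes to 1.22 and 1.21, oxidative phosphorylation genes to 1.19 and 1.21, and epithelial and colon genes to 1.35 and 1.46. Immediate early mRNAs summed to 0.711 and 0.829, against 2.03 and 3.68 in MALAT1-rich cells. Replication-dependent histone genes summed to 2.60 (2.08 to 3.21) and 1.11 (0.993 to 1.24), against 0.441 (0.269 to 0.681) and 1.59 (1.38 to 1.83) in MALAT1-rich cells. Their order between rich and poor cells thus differed between the libraries. In direct comparison, nuclear-retained mRNAs were 11.4 times (7.65 to 17.6) and 7.32 times (6.43 to 8.35) as frequent in rich as in poor cells, and ribosomal protein mRNAs 0.457 and 0.413 times.

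Of the genes with at least 100 UMIs observed or expected in MALAT1-rich cells, 2 of 54 in mock-treated cells (3.7%) were 2-fold higher than in full cells and 31 (57.4%) were 2-fold lower, and 24 of 160 (15%) and 85 (53.1%) in DAC-treated cells. With 100 UMIs expected from full cells, 0 of 51 (0%) and 1 of 133 (0.752%) were higher and 31 (60.8%) and 85 (63.9%) lower, so the lower genes did not rest on this limit and nearly all higher ones did. In mock-treated rich cells NEAT1 was 4.58 times (3.80 to 5.48) and SAT1, which acetylates polyamines, 2.59 times as frequent as in full cells, while RPL7 and RPS2 stood at 0.21 and 0.26. The highest ratios in DAC-treated rich cells were those of PLCG2, 112 (98.9 to 127), or 75.8 without its highest cell, and HBG2, 28.4 (23.1 to 34.7). NEAT1 stood there at 9.20 (8.51 to 9.93), SAT1 at 7.88, VMP1 at 7.69 and the antisense RNA GABPB1-AS1 at 6.25. Lowest there were BTF3 (a nascent-chain factor; 0.19), TXN (thioredoxin; 0.20) and FTH1 (the ferritin heavy chain; 0.21). These genes were picked out after their values were seen, and the higher ones named reached 100 UMIs through the rich cells. Of the NEAT1 UMIs of low-RNA cells, 671 of 905 lay in rich and 2 in poor DAC-treated cells, and 120 of 426 in rich and 0 in poor mock-treated cells.

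In DAC-treated MALAT1-poor cells 6 of 373 genes (1.61%) were 2-fold higher and 11 (2.95%) lower. All 6 higher genes reached 100 UMIs through their counts in the poor cells, and with 100 UMIs expected from full cells 0 of 311 (0%) were higher and 11 (3.54%) lower. The higher ones included TUBB2A (a tubulin; ratio 2.46), ARF4 (a Golgi GTPase; 2.23), MAP1LC3B (an autophagosome protein; 2.07) and GHITM (an inner-membrane protein of mitochondria; 2.02). KRT81 stood at 3.98, but 147 of its 171 UMIs lay in 1 cell and the ratio was 0.58 without it. These higher genes and the lower ones that follow were picked after their values were seen. Lower than in full cells were MKI67 (a proliferation antigen; 0.17), ANKRD11 (a chromatin regulator; 0.22), AKAP12 (a kinase anchor; 0.23), BSG (0.29), HSP90B1 (0.35) and CALR (0.43). G2/M genes summed to 0.736 (0.695 to 0.779) in DAC-treated but 1.53 (1.28 to 1.82) in mock-treated poor cells, so that list lay on different sides in the 2 libraries. The endoplasmic reticulum folding list summed to 0.650 (0.508 to 0.820) in mock-treated and 0.695 (0.650 to 0.742) in DAC-treated poor cells, and to 1.49 and 0.673 (0.607 to 0.745) in rich cells, so in DAC-treated cells it did not set the poor cells apart. In mock-treated poor cells only 39 genes could be measured, and 0 of them differed 2-fold in either direction (0%).

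Cells between the 2 ends were close to full cells in the mock-treated library by most lists, but not in the DAC-treated one. Ribosomal protein genes summed to 0.987 (0.980 to 0.994) and 0.880 (0.871 to 0.889), nuclear-retained mRNAs to 1.16 and 2.10 (1.98 to 2.23), and immediate early mRNAs to 1.18 and 2.98 (2.82 to 3.14). Replication-dependent histone genes summed to 0.862 and 1.92, hosts of small nucleolar RNAs to 1.01 and 1.80, and ferritin and metallothionein genes to 1.08 and 0.561 (0.532 to 0.591). Of 267 genes in mock-treated cells 1 (0.375%), MTRNR2L12 at 2.66, was 2-fold higher and 0 were lower, and of 303 genes in DAC-treated cells 18 (5.94%) were higher and 3 (0.99%) lower. With 100 UMIs expected from full cells, 0 of 247 (0%) and 2 of 265 (0.755%) were higher and 0 (0%) and 3 (1.13%) lower. Of the genes that reached 100 UMIs through the cells between, PLCG2 was 358 times (334 to 384, or 220 without its highest cell), JUN 9.94 times (8.66 to 11.4) and IER2 3.93 times as frequent as in full DAC-treated cells. Ferritin genes FTL and FTH1 stood at 0.53 and 0.54.

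**Figure D4:**
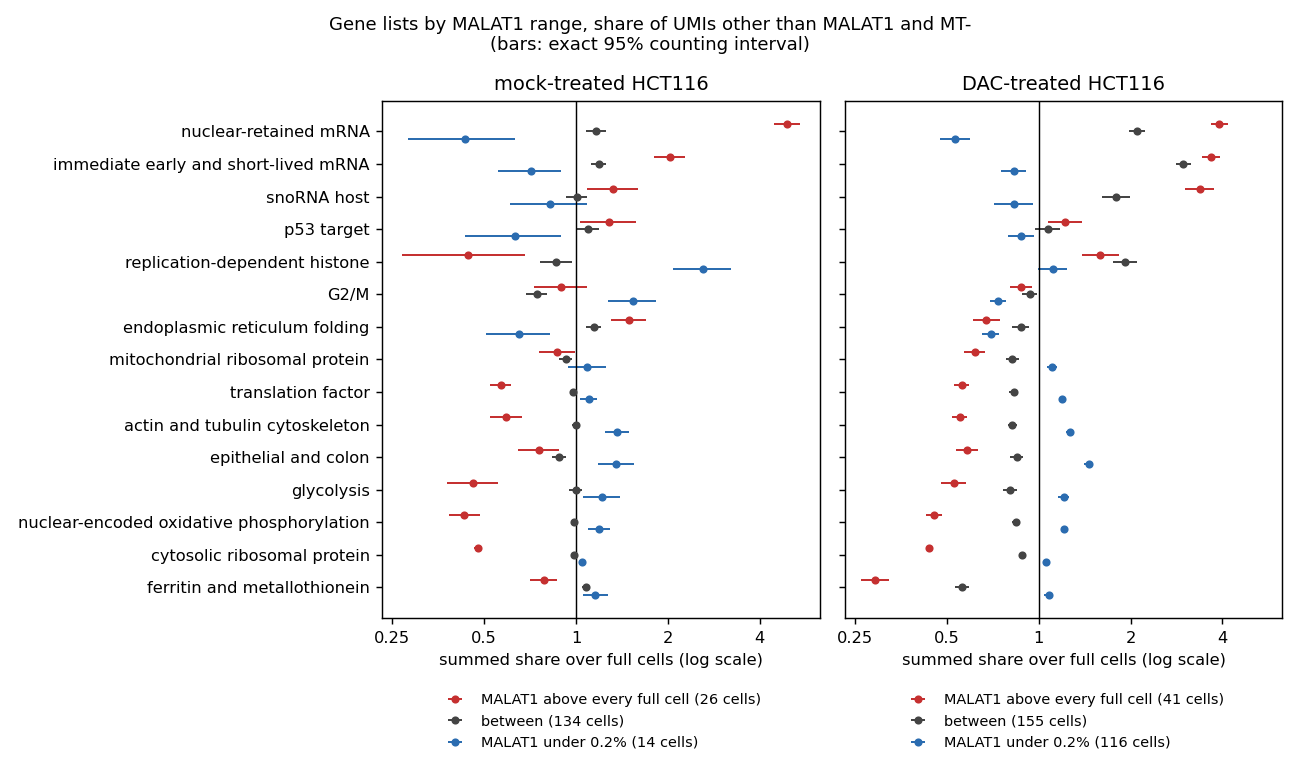
Points give the summed share of each list over that in full cells (log scale), computed without MALAT1 and MT- UMIs, with exact 95% counting intervals, for low-RNA cells above every full cell in MALAT1 share (red), under 0.2% (blue) and between (dark). Nuclear-retained mRNAs lie at 4.91 and 3.90 in red and at 0.432 and 0.533 in blue, and ribosomal protein genes at 0.477 and 0.437 in red and at 1.04 and 1.06 in blue.

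PLCG2 had the highest ratio of all measured genes in DAC-treated low-RNA cells. The gene, at chr16:81779279-81962685 (hg38, plus strand), encodes a phospholipase C best known from B cell receptor signalling, and was singled out after its values were seen. Low-RNA cells held 2399 PLCG2 UMIs in 70 of 312 cells, more than the 1317 in all 1120 full cells, which is 4046 against 24.2 CPM (log2 ratio 7.39, 7.29 to 7.48). A single cell of 5229 UMIs held 831 of them (15.9% of its RNA), and the log2 ratio was 6.79 without that cell. In mock-treated low-RNA cells 85 UMIs lay in 12 cells (log2 ratio 3.39, 3.06 to 3.71, and 2.80 without the highest cell). PLCG2 reached 100 UMIs in DAC-treated cells through its low-RNA count and did not reach it in mock-treated ones, so these values are a description.

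In 28 DAC-treated low-RNA cells PLCG2 made up over 1% of UMIs, and no full cell of either library reached that share. Of the 28, 5 were MALAT1-rich, 23 lay between and 0 were MALAT1-poor. They held between 589 and 6302 UMIs (median 1769.5), with a median mitochondrial share of 6.02% and a median MALAT1 share of 4.94%. They were compared with the other 284 low-RNA cells, with PLCG2 and mitochondrial UMIs left out. Of 192 genes with at least 50 UMIs observed or expected in the 28 cells, 27 were 2-fold or more higher and 45 were 2-fold or more lower. The genes named next were picked after their values were seen, and HEXIM1, SOX4, PLEC and JUN reached the minimum of 50 UMIs through the 28 cells. HEXIM1, an inhibitor of the elongation factor P-TEFb, was 9.07 times as frequent (6.06 to 13.6), the transcription factor SOX4 6.92 times, PLEC (plectin) 6.71 times and JUN 5.44 times (4.33 to 6.81). FTL and FTH1 stood at 0.287 and 0.314, and MALAT1 at 0.986 (0.952 to 1.02). The pooled MALAT1 ratio hides a difference per cell, since the median MALAT1 share was 4.94% in the 28 cells and 0.501% in the other 284.

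MTRNR2L12 and MTRNR2L8 are nuclear copies of the mitochondrial 16S ribosomal RNA gene MT-RNR2, annotated as pseudogenes by RefSeq (GRCh38.p14) at chr3:96617186-96618223 and chr11:10507887-10509176. Of their 31-base words, 33.9% and 22.1% also occur in MT-RNR2, so reads of the mitochondrial RNA could be counted to them and their values are uncertain. MTRNR2L12 gave 758.5 CPM against 270.8 in full mock-treated cells (log2 ratio 1.49, 1.31 to 1.66) and 1012 against 268.7 in DAC-treated ones (1.91, 1.79 to 2.03). By mitochondrial share, the MTRNR2L12 ratio to full cells was 6.05 (mock-treated) and 11.3 (DAC-treated) in low-RNA cells from 20% to 50%, and 0.310 and 1.06 in those under 5%. MTRNR2L8, picked after its values were seen, had log2 ratios of 0.55 and 1.95. The MTRNR2L12 excess was thus highest where mitochondrial UMIs were most frequent.

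Genes that DAC induces were examined next, with 10 genes that were nearly silent in mock-treated cells. Among them are MEG3 (an imprinted non-coding RNA), the cancer-testis genes MAGEA4, VCX3A and VCX3B, and UCHL1 (a ubiquitin hydrolase). Together they gave 1119 UMIs in DAC-treated low-RNA cells, 1887 CPM (1778 to 2001), against 1213 CPM in full cells, a ratio of 1.56 (1.47 to 1.65). At least 1 UMI of the 10 genes was seen in 241 of 312 low-RNA cells (77.2%) and 1119 of 1120 full cells. At 500 UMIs per cell the shares were 171 of 312 (54.8%, 49.1 to 60.4) and 444 of 1120 (39.6%, 36.8 to 42.6). Mock-treated cells, which should lack these transcripts, gave 5 of 174 low-RNA cells (2.87%) and 2 of 1298 full cells (0.154%) at the same depth. The induced transcripts thus had no lower share of the UMIs in DAC-treated low-RNA cells than in full cells. Whether they came from the cells or from free RNA of the same culture was not tested.

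The induced genes did not share 1 ratio. MEG3 gave 357.5 CPM in low-RNA against 168.8 in full DAC-treated cells (log2 ratio 1.08, 0.88 to 1.28), VCX3B 278.2 against 140.4 (0.99, 0.76 to 1.21) and MAGEA4 242.8 against 143.6 (0.76, 0.51 to 1.00). KRTAP3-1, VCX3A and LINC00958 stood at 0.73, 0.82 and 0.63, and UCHL1 at 0.39 (0.06 to 0.71). SAP25, LY6K and TKTL1 stood at −0.03, 0.00 and 0.22 with intervals that hold 0. Of the 10 genes, 7 had an interval above 0 and none below, against 340 (20.3%) above and 378 (22.5%) below of the 1679 genes with at least as many UMIs expected from full cells as the lowest of the 10, a comparison added after seeing the data. VCX3A and VCX3B are close paralogs, so reads may be split between them. MEG3 UMIs were found in 60 low-RNA cells, where an even share over all RNA would have reached 128.

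**Figure D5:**
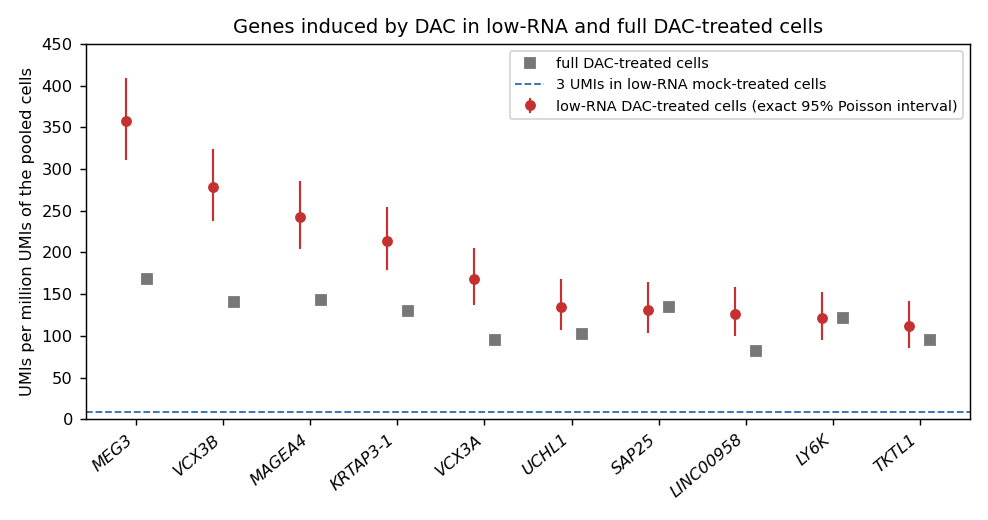
For each of 10 DAC-induced genes, red points give the CPM of the pooled low-RNA DAC-treated cells with exact 95% Poisson intervals, and grey squares those of the full DAC-treated cells. The dashed line marks 3 UMIs in mock-treated low-RNA cells (8.52 CPM), which only SAP25, with 7 UMIs, exceeded. MEG3, VCX3B and MAGEA4 have the highest CPM in low-RNA cells, at 357.5, 278.2 and 242.8.

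The 10 genes together were present at both ends of the MALAT1 spread, with 2341 CPM (2084 to 2620) in MALAT1-rich and 1988 (1812 to 2177) in MALAT1-poor DAC-treated cells. They gave 2038, 1816 and 1466 CPM in cells under 5%, from 5% to under 20% and from 20% to 50% mitochondrial UMIs. The total behind these CPM holds the mitochondrial UMIs, which lowers the values more where the mitochondrial share is higher. The fall over the ranges is therefore not read as fewer induced transcripts. Whether it remains without mitochondrial UMIs was not tested. Without the shared barcodes the pooled value was 1898. Single genes were less even, since MEG3 had 111 UMIs in rich and 1 in poor cells. VCX3B stood at 2.59 (2.11 to 3.16) times its full-cell share in poor cells, counted without MALAT1 and mitochondrial UMIs, unlike the CPM values. MEG3 and VCX3B were picked after their values were seen, and each reached 100 UMIs through the range where it was high. The wider cancer-testis list of 41 genes summed to 1.02 (0.763 to 1.34) in mock-treated and 1.60 (1.51 to 1.69) in DAC-treated low-RNA cells.

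In mock-treated low-RNA cells the 10 genes gave 8 UMIs in 8 cells, 7 of SAP25 and 1 of VCX3A, or 22.7 CPM (9.81 to 44.8) against 2.19 in full cells. The ratio of 10.4 (4.37 to 21.3) rests on these 8 UMIs. Of the 8, 1 lay in a cell whose barcode was a full cell of 68764 UMIs in the DAC-treated library, and without the shared barcodes 7 UMIs and 20.1 CPM were left. From mock- to DAC-treated cells the 10 genes were 83.0 times (42.0 to 193) as frequent in low-RNA cells and 555 times in full cells. The other 7 UMIs therefore lay in cells without a shared barcode.

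Between treatments, over 944 genes, 226 (23.9%) were 2-fold or more higher in DAC-treated than in mock-treated low-RNA cells and 40 (4.24%) lower, against 141 (14.9%) and 44 (4.66%) of the same genes in full cells. Pooled over cells, MALAT1 was 0.902 times (0.887 to 0.918) as frequent in DAC-treated as in mock-treated low-RNA cells, and 0.462 times in full cells. The median MALAT1 share per cell was 0.673% in DAC-treated against 2.57% in mock-treated low-RNA cells, and 1.09% against 2.57% in full cells. The pooled low-RNA ratio thus does not describe the median cell. As pooled ratios of DAC-treated over mock-treated cells, immediate early mRNAs stood at 1.00 (0.943 to 1.07) in low-RNA and 0.526 in full cells. KRT18, a keratin of simple epithelia, stood at 2.69 and 2.14, interferon-stimulated genes at 2.22 and 2.51, and ribosomal protein genes at 0.674 and 0.663. IFI6, of the interferon list, stood at 5.14 (3.01 to 9.46) and 17.1. Of these ratios, that of ribosomal protein genes was closest in the 2 kinds of cell. Since genes entered by their low-RNA counts, the shares of genes past 2-fold in low-RNA and full cells are not read against each other.

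Markers of the cell line were present in low-RNA cells. Epithelial and colon genes, 13 of 16 with a UMI in each library, summed to 0.888 (0.847 to 0.930) in mock-treated and 1.13 (1.11 to 1.16), or 1.02 (0.989 to 1.04) without mitochondrial UMIs, in DAC-treated low-RNA cells. KRT18 had the most UMIs of all non-mitochondrial genes in 25 DAC-treated low-RNA cells (8.01%). MALAT1 led in 135 mock-treated (77.6%) and 123 DAC-treated low-RNA cells (39.4%), against 90.8% and 56.8% of full cells. Fewer low-RNA than full cells were thus led by MALAT1 in both libraries, with each cell taken at its own depth. Median depths were 837 and 1006.5 UMIs in low-RNA against 32296.5 and 47060.5 in full cells. The leading gene at equal depth was not tested.

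Markers of blood, endothelial, muscle and fibroblast cells, 14 genes, gave 11 UMIs in mock-treated and 36 in DAC-treated low-RNA cells, at 1.77 (0.881 to 3.19) and 2.01 times (1.41 to 2.80) their full-cell share. COL1A1, a fibroblast collagen gene, gave 8 and 25 of these UMIs. In mock-treated cells 12 of the 14 and in DAC-treated cells 7 of the 14 had no UMI, among them PTPRC (the leukocyte marker CD45), CD3E, LYZ, HBB, COL3A1, DCN and VWF in both libraries. HBG2, a fetal globin gene nearly identical to HBG1, had 123 UMIs in 32 DAC-treated low-RNA cells, 103 of them in MALAT1-rich cells, and its assignment is uncertain.

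Cells above the mitochondrial limit, 311 and 319, gave a comparison for the nuclear signature. With mitochondrial UMIs left out, their MALAT1 share was 6.46 and 5.89 times that of full cells, and that of ribosomal protein mRNAs 0.282 and 0.355 times. In low-RNA cells the same MALAT1 ratios were 2.20 and 3.93 and those of ribosomal protein genes 0.897 and 0.834. Over all UMIs, the total used for the pooled values above, the MALAT1 ratio of cells above the limit was 2.41 and 2.38 against 2.25 and 4.39 in low-RNA cells. In the DAC-treated library it thus depended on the total which group had the larger MALAT1 ratio, and the difference was not tested.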

How the data were processed

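HCT116 cells were profiled as 2 droplet libraries, mock-treated and DAC-treated. The deposited tables, which the authors made with Cell Ranger on hg38, hold raw UMI counts of 33538 genes per cell barcode. The members and gene lists were chosen with earlier results of these data known. Cells were grouped by total UMIs (10000) and MT- share (50%), with no other filter, and doublets were not called. Counts were summed per library and cell group. Shares carry exact Clopper-Pearson intervals, sums exact Poisson intervals, and ratios of shares the exact interval of a ratio of 2 Poisson counts (95%). Genes needed 100 UMIs observed or expected in low-RNA cells, or, where said, expected from full cells alone. A bound for a gene without UMIs uses 3 counts per cell group.

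Named genes were MALAT1 and NEAT1, the 10 highest and 10 lowest in both libraries, the 10 DAC-induced genes and up to 4 members of each of 23 lists, and genes picked later are said to be so. Y-linked genes and XIST were left out. One of the 10 highest genes and one sequence are not reported here. The low-RNA cells hold 352000 and 592994 UMIs, which limits single genes far more than lists. Alternatives were the scaling, the limits on cells and genes, and leaving out single cells or barcodes. The scripts were tested on simulated data. Positions and sequences came from hg38 with GENCODE release 44 and RefSeq. Python 3.11.15, numpy 2.4.6, scipy 1.17.1, pandas 2.3.3 and matplotlib 3.10.9 were used.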

Additional observations from a re-analysis of the deposited data

Results flagged for a closer look

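In 4 gene lists the mock-treated and DAC-treated libraries lay on opposite sides of the full cells, with counting intervals that exclude 1 in both. Each difference between libraries was not tested, since there is 1 library per treatment. The summed share in low-RNA over full cells was 0.965 (mock-treated) and 1.03 (DAC-treated) for actin and tubulin genes, 1.12 and 0.808 for endoplasmic reticulum folding genes, 0.888 and 1.13 for epithelial and colon genes, and 1.03 and 0.783 for ferritin and metallothionein genes. Without mitochondrial UMIs the epithelial ratio in DAC-treated cells was 1.02 (0.989 to 1.04), the actin and tubulin ratio 0.917 (0.901 to 0.934), and the ferritin ratio in mock-treated cells 1.01 (0.982 to 1.04), so of the 4 lists only the endoplasmic reticulum one, at 1.09 and 0.723, still had intervals on opposite sides of 1. In mock-treated cells under 5000 UMIs, however, the endoplasmic reticulum ratio was 0.932, below 1 as in DAC-treated cells. The counting intervals treat cells as 1 pool and say nothing of the spread between cultures.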

How the results depend on the processing

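Ratios are low-RNA over full cells, and values with the mock-treated library come first. The cause of each change was not tested. Over UMIs other than MT-, MALAT1 was 2.20 and 3.93, NEAT1 2.22 in DAC-treated cells, ribosomal protein genes 0.897 and 0.834 and the 10 DAC-induced genes 1.39. As means of per-cell shares, MALAT1 was 2.36 and 2.69, NEAT1 1.48 and 1.63, and ribosomal protein genes 0.830 and 1.01. Under 5000 UMIs, MALAT1 and NEAT1 in mock-treated cells were 3.65 and 2.54, and ribosomal protein genes 0.769 and 0.957. At 20% MT- or less, MALAT1 was 2.48 and 4.69, NEAT1 2.14 and 3.28, ribosomal protein genes 0.981 and 0.941 and the DAC-induced genes 1.79. Median-of-ratios scaling gave MALAT1 2.42 and ribosomal protein genes 0.985 in mock-treated cells. Without the top 5% of cells, MALAT1 was 4.29 and ribosomal protein genes 0.942 in DAC-treated cells. Chosen after seeing the data, from 1000 UMIs upward MALAT1 was 2.43 and 5.20, NEAT1 1.99 and 2.94 and ribosomal protein genes 0.932 and 0.901, and without the highest single cell MALAT1 was 2.12 and 4.13, NEAT1 1.33 and 2.27 and ribosomal protein genes 0.905 and 0.922. The ratio of median per-cell shares, also added, reversed MALAT1 (1.00, just below equality, and 0.617), and gave ribosomal protein genes 0.878 and 1.06. The ratio of genes detected reversed from under 1 to 1.06 and 1.09 at 500 UMIs. Genes 2-fold higher in mock-treated cells (2) became 1 by the mean of cells, 6 under 5000 UMIs, 2187 with no minimum and 1 with a minimum of 500, and those lower (0) became 1 at 20% MT- or less and 606 with no minimum. In DAC-treated cells those higher (52) became 34 under 5000 UMIs, 4469 with no minimum and 6 with 500, and those lower (8) became 532 and 4 with these minimums. With 100 UMIs expected from full cells alone, a limit chosen after seeing the data, those higher became 1 and 14. Of the single genes, HIST1H2BN in mock-treated cells reversed to 0.749 by the mean of cells, and KRT81 in DAC-treated cells to 0.905 under 5000 UMIs and 0.768 without its highest cell. Of 2163 other values, 451 lay beyond the counting interval and 51 changed direction where the interval had excluded 1. No paired analysis was possible because the labels give no replicate numbers and there is 1 library per treatment.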
